A study of Mus musculus with 6 samples.

Results

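Kruppel-like factors are transcription factors that bind GC-rich and CACCC-type sequences through zinc fingers at their C-terminal end. The 10 genes described here are Klf2, Klf3, Klf4, Klf5, Klf6, Klf7, Klf9, Klf10, Klf11 and Klf13, chosen by name, out of 53379 genes in the count table. They were chosen with earlier results of these data known. All 10 were found by their symbols, and all 10 passed the filter on low counts that 14537 genes passed. Klf2 passed through the LOH libraries, since its counts in the heterozygous ones were 3, 7 and 11. The RNA came from 6 cultures of tumour organoids, epithelial cells grown in a gel dome, from C57/Bl6 mice whose label genotype includes Pdx1-Cre and an activatable Trp53 R172H allele. Pdx1-Cre drives recombination from the Pdx1 promoter, which is active in the developing pancreatic epithelium, and all 6 cultures share it. Each of the 3 organoid lines, numbered 6, 23 and 34, gave 1 library heterozygous for Trp53 (n = 3, labelled Trp53LSLR172H/+) and 1 titled as having lost the other allele (loss of heterozygosity, LOH, n = 3, labelled Trp53LSLR172H/-). In their descriptions the LOH libraries alone bear an added suffix. No label states what it stands for, and it cannot be told apart from the genotype. Ages and passage numbers are not given in the sources used here. Unless the organoid line is said to enter the model, p-values rest on the spread between cultures of the same group. They then leave out the pairing by line, and they speak for these 6 cultures only.

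Family members differ outside the zinc fingers. Klf3 recruits the corepressor CtBP, while Klf9, Klf10, Klf11 and Klf13 carry repressor domains that bind Sin3. Klf2, Klf4, Klf5, Klf6 and Klf7 are mostly described as activators, although Klf4 can also repress. In the gut, Klf5 is known from proliferating crypt cells and Klf4 from cells that have left the cell cycle and differentiate. In the pancreas, Klf4 and Klf5 have both been studied in the change of acinar cells to duct-like cells and in early neoplasia. Several members, among them Klf2, Klf4, Klf6 and Klf10, are transcribed within a short time of a stimulus, and Klf9 and Klf10 are also known as genes under the control of hormones, TGF-beta or the circadian clock.

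Libraries held 13680458 to 27917277 expected counts, with overlapping totals in the groups. Protein-coding genes held 67.9% to 73.3% of the counts in the heterozygous and 61.4% to 67.2% in the LOH libraries, and the part of this difference in the results was not tested. A count of 3 corresponded to 0.1 to 0.223 CPM, the count divided by the TMM-scaled size of its library. Trp53 had 76.3 to 86.5 CPM in the heterozygous and 47.4 to 73.5 CPM in the LOH libraries, and these counts do not separate the mutant transcript from the wild-type one. Epithelial markers summed to 5112 to 6028 CPM in every library other than LOH line 34, which stood apart at 11186 CPM. Of 8 fibroblast markers none passed the count filter, 2 were at 0 in every library, and their sum was 0 to 0.0667 CPM in the heterozygous and 0.466 to 0.873 CPM in the LOH libraries. The 8 endothelial markers, none of which passed the filter, summed to 0.519 to 0.901 CPM in the heterozygous and 0.868 to 3.2 CPM in the LOH libraries. The 8 leukocyte markers summed to 46.2 to 49.3 CPM and 23 to 48.2 CPM, most of it Cd14, with Lyz2 at 0 throughout. Cd14 passed the filter and did not overlap between the groups, at 43.9, 47.3 and 44.1 CPM in heterozygous lines 6, 23 and 34. After LOH it had a lower 19.7, 40.5 and 31.4 CPM (log2 fold change -0.56, SE 0.27, adjusted p 0.252 in edgeR). Cd68, the other leukocyte marker that passed the filter, did not overlap between the groups, at 1.7, 1.78 and 1.84 CPM in heterozygous lines 6, 23 and 34 and a higher 2.97, 6.95 and 14.7 CPM after LOH (log2 fold change 2.21, SE 0.57, adjusted p 0.0713 in edgeR), and its part in the results was not tested.

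Klf4 and Klf9 rose with LOH, by 2.26-fold and 2.6-fold in mean CPM, and no member was called lower. In the quasi-likelihood test of edgeR over all tested genes, 2 of the 10 members had a Benjamini-Hochberg adjusted p under 0.05, both higher. Of all tested genes 3.55% were called higher and 5.21% were called in either direction. The log2 fold change was above 0 in 9 of 10 members, against 54% of all tested genes, and its median was 1.05, against 0.06 over all tested genes. CPM values of the groups did not overlap, with all LOH libraries higher, for 6 members (Klf2, Klf4, Klf5, Klf7, Klf9 and Klf10), against 16.4% of all tested genes. There were 7 members with an unadjusted p under 0.05, against 25.3% of all tested genes. Klf2, which passed the count filter through its LOH libraries, is in each of these 3 tallies. The members were chosen with earlier results of these data known, so the tallies are a description and not a test of the family. All 3 tested Klf genes outside the 10 had log2 fold changes below 0. With at least 10 counts required in every library Klf2 dropped out. Of the 9 members left, 8 were above 0 and 6 had an unadjusted p under 0.05, against 26.3% of all genes tested there. Once the organoid line entered the model as a block, 0 members passed, against 1.47% of all tested genes in either direction and 1.22% higher. Under it 7 members had an unadjusted p under 0.05, against 20% of all tested genes. DESeq2 called 6 members, and 16.1% of the 14197 genes to which it gave an adjusted p.

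**Figure D1:**
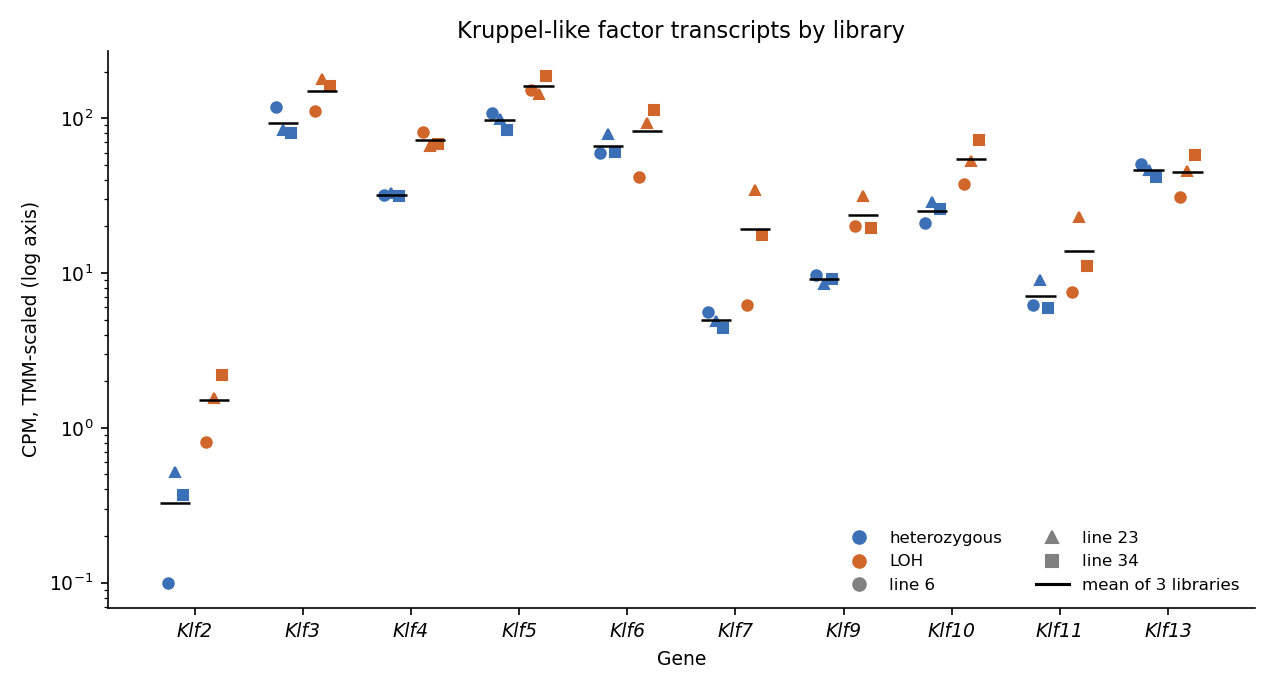
Level of each Kruppel-like factor in the 6 libraries, in TMM-scaled CPM on a log axis. Blue marks are heterozygous and orange marks LOH libraries, the shape gives the organoid line and the black bar is the mean of 3 libraries. The 3 heterozygous values of Klf4 lie between 31.2 and 32.7 CPM and its LOH values between 66.3 and 81.7 CPM, while the groups overlap for Klf3, Klf6, Klf11 and Klf13.

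Klf4 (ENSMUSG00000003032.8; chromosome 4, 55527143 to 55532466, minus strand, GRCm38) is the member tied to epithelial differentiation. When heterozygous it stood at 31.7, 32.7 and 31.2 CPM in lines 6, 23 and 34, from 950, 441 and 935 counts. In the LOH libraries of the same lines it had 81.7, 66.3 and 68.3 CPM, from 1403, 1756 and 1467 counts. The heterozygous cultures sat within a narrow band, and every LOH culture lay well above it. Its mean rose from 31.9 ± 0.77 to 72.1 ± 8.36 CPM (mean ± SD, n = 3 per group), or a log2 fold change of 1.18 (SE 0.17, adjusted p 0.0208 in edgeR). It did not pass once the organoid line entered as a block (log2 fold change 1.17, SE 0.23, adjusted p 0.0852 in edgeR). Nor did it without the heterozygous library of line 6, 23 or 34, at edgeR adjusted p-values of 0.122, 0.115 and 0.143, where no gene of the table was called and 2966, 2637 and 2272 genes had an unadjusted p under 0.05. Over 18 alternatives its adjusted p ran from 2.67e-07 to 0.17 and its log2 fold change from 0.71 to 1.25.

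Klf9 (ENSMUSG00000033863.1; chromosome 19, 23141226 to 23168134, plus strand) encodes a Sin3-binding repressor induced by glucocorticoid and thyroid hormones. It had 9.74, 8.46 and 9.08 CPM when heterozygous (lines 6, 23 and 34) and 20.1, 31.3 and 19.6 CPM after LOH, the groups lying far apart. LOH line 23 was the highest. The mean rose from 9.09 ± 0.64 to 23.7 ± 6.64 CPM (mean ± SD, n = 3 per group), or a log2 fold change of 1.38 (SE 0.25, adjusted p 0.0324 in edgeR). It missed the threshold with the block (log2 fold change 1.34, SE 0.29, adjusted p 0.0985 in edgeR). The edgeR adjusted p was 0.143, 0.155 and 0.174 without the heterozygous library of line 6, 23 or 34, in a range of 0.000108 to 0.207 over 18 alternatives. The annotation places Mir1192 on the same strand, overlapping it.

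The promoters of these 2 called genes are shown beside that of Klf13, the member with the smallest change. Each is 300 bases, from 250 before to 50 after the start site, from RefSeq on GRCm38.p6, written 5′ to 3′ on the strand of the gene, and capitals mark CACCC (or GGGTG) and GGGCGG (or CCGCCC), which can overlap.
Klf4, chr4:55532426-55532725, minus strand: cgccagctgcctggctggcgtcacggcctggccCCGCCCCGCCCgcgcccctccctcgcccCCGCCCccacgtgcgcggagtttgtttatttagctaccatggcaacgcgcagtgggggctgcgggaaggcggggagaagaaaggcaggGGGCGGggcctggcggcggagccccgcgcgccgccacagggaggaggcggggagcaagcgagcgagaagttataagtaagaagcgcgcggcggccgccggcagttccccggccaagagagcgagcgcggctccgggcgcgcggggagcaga
Klf9, chr19:23140976-23141275, plus strand: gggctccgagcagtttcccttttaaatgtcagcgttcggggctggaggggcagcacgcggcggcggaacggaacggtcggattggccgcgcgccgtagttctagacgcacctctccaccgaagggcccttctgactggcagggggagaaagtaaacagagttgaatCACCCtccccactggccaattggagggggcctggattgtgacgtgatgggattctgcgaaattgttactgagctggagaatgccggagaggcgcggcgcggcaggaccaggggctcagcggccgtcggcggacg
Klf13, chr7:63938866-63939165, minus strand: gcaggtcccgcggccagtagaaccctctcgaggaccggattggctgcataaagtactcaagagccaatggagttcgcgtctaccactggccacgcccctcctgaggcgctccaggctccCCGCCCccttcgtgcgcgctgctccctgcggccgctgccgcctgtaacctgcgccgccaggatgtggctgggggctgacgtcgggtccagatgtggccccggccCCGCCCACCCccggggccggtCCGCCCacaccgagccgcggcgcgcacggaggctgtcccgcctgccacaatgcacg
The Klf4 window holds 4 matches to GGGCGG and 0 to CACCC, and the Klf9 window holds 1 match to CACCC and 0 to GGGCGG. Klf13 has 3 matches to GGGCGG and 1 to CACCC, and the part of these matches in the results was not tested. The promoter table held 8 of the 10 members. Klf5 and Klf10 had no entry. GGGCGG was found in 7 of the 8 and CACCC in 5 of the 8, against 35.7% and 57.5% of 32851 promoters of the same length. No window of the 8 held TATAAA or a CArG box, the element bound by serum response factor, against 13.6% and 1.63% of all promoters. At so low a share the absence of a CArG box from 8 windows says little. TGACG was found in 5 of the 8 and CCAAT in 4 of the 8, on either strand, against 20.8% and 37.4%. The GC content was 74.3% for Klf4, 63.3% for Klf9 and 72% for Klf13, with a median of 52.7% over all promoters. Over the 8 windows it ran from 58.3% to 77.7%, and its part in the GGGCGG matches was not tested.

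Klf5 (ENSMUSG00000005148.8; chromosome 14, 99298691 to 99315036, plus strand), the factor of proliferating epithelium, had 108, 99.5 and 84.2 CPM when heterozygous and 153, 143 and 187 CPM after LOH, in the same order of lines. Every LOH library was higher than every heterozygous one. The means were 97.2 ± 12.1 and 161 ± 23.3 CPM (mean ± SD, n = 3 per group). For this gene the log2 fold change of 0.73 (SE 0.19) did not pass, at an edgeR adjusted p of 0.0759. The unit matters for this gene, since its TPM values, which are scaled for length and depth, were 44, 32.5 and 29.1 against 45.5, 38.8 and 46.6 and overlapped.

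Klf10 and Klf11, the close pair first described as early genes of the TGF-beta response, did not pass. Klf10 (ENSMUSG00000037465.10; chromosome 15, 38291463 to 38300706, minus strand) had 21.1, 28.9 and 25.8 CPM when heterozygous and 37.3, 53.3 and 72.4 CPM after LOH. The groups did not overlap, and the LOH libraries spread more widely, at 54.3 ± 17.6 against 25.3 ± 3.94 CPM (mean ± SD, n = 3 per group). For this gene the log2 fold change was 1.1 (SE 0.28, adjusted p 0.0683 in edgeR), and without LOH line 6 it was 1.28 with an edgeR adjusted p of 0.0216, in a range of 0.00794 to 0.342 over 18 alternatives. Klf11 (ENSMUSG00000020653.12; chromosome 12, 24651274 to 24662789, plus strand) had 6.21, 8.98 and 5.98 CPM when heterozygous and 7.51, 23.1 and 11.2 CPM after LOH. Here the groups overlapped, because LOH line 6 lay below heterozygous line 23. For this gene the log2 fold change was 0.99 (SE 0.44, adjusted p 0.213 in edgeR), and 0.41 without LOH line 23.

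Klf13 (ENSMUSG00000052040.10; chromosome 7, 63886351 to 63938915, minus strand), the other Sin3-binding member, had 50.8, 46 and 41.9 CPM when heterozygous and 31.2, 45.9 and 58 CPM after LOH. The LOH values lay on both sides of the heterozygous ones. Its log2 fold change was -0.04 (SE 0.25, adjusted p 0.94 in edgeR). The lines differed in sign, and leaving out LOH line 6 turned the value to 0.13. The annotation places E030018B13Rik and Gm27252 on the opposite strand, overlapping it.

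Klf7 and Klf6 are close relatives, Klf7 known from axon growth and Klf6 from injury and as a candidate tumour suppressor. Klf7 (ENSMUSG00000025959.13; chromosome 1, 64029447 to 64122282, minus strand) had 5.6, 4.9 and 4.44 CPM when heterozygous (lines 6, 23 and 34) and 6.23, 34.3 and 17.6 CPM after LOH. LOH line 6 was barely above the heterozygous range, whereas lines 23 and 34 were far above it. The log2 fold change was 1.96 (SE 0.57, adjusted p 0.0907 in edgeR). Leaving out LOH line 6 gave 2.34 (adjusted p 0.0172 in edgeR), and leaving out LOH line 23 gave 1.25 (adjusted p 0.179 in edgeR), in a range of 0.00703 to 0.401 over 18 alternatives. The annotation places Gm13748 and Gm26649 on the opposite strand and Mir6899 on the same strand.

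Klf6 (ENSMUSG00000000078.7; chromosome 13, 5861482 to 5870394, plus strand) had 59.7, 78.9 and 60.1 CPM when heterozygous and 41.4, 93.8 and 113 CPM after LOH. LOH line 6 was the lowest of the 6 libraries and LOH line 34 the highest. Its log2 fold change was 0.32 (SE 0.36, adjusted p 0.606 in edgeR), -0.04 without line 34, and -0.22 in limma on log2(TPM + 0.1), so no direction is given for it.

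Klf2 (ENSMUSG00000055148.7; chromosome 8, 72319033 to 72321656, plus strand), best known from endothelium and resting T cells, was the least abundant member. It had 3, 7 and 11 counts in the heterozygous libraries, or 0.1, 0.519 and 0.367 CPM. The LOH libraries held 14, 41 and 47 counts, or 0.815, 1.55 and 2.19 CPM, all above the heterozygous ones. The log2 fold change of 2.26 (SE 0.68) did not pass, at an edgeR adjusted p of 0.0966. Summed endothelial markers were also higher in the LOH libraries of lines 6 and 34 (3.2 and 1.77 CPM, against 0.534 and 0.901 CPM in the heterozygous libraries) and 0.868 against 0.519 CPM in line 23. Single genes carried most of the sums of LOH lines 6 and 34. Tek was at 2.5 CPM in LOH line 6 and 0 in LOH lines 23 and 34. Tie1 was at 1.16 CPM in LOH line 34 and 0 in LOH line 23. In LOH line 23 Vwf had 0.491 CPM and Kdr 0.227 CPM. Vwf and Pecam1 did not overlap between the groups, both higher with LOH. Vwf had 0.2, 0.148 and 0.2 CPM against 0.291, 0.491 and 0.233 CPM. Pecam1 had 1, 0 and 1 counts against 2, 3 and 4. Emcn and Robo4 were at 0 in every library, and Cdh5 was at 0 in 5 of 6 libraries. The part of the endothelial markers in the result was not tested. In these bulk samples more cells that make a transcript cannot be told apart from more transcript per cell.

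Klf3 (ENSMUSG00000029178.14; chromosome 5, 64803388 to 64832901, plus strand), the CtBP-dependent repressor, had 117, 83.9 and 80 CPM when heterozygous and 112, 178 and 162 CPM after LOH. Lines 23 and 34 were higher with LOH and line 6 was not, so the groups overlapped. Its log2 fold change was 0.68 (SE 0.25, adjusted p 0.149 in edgeR), and 1.02 with an edgeR adjusted p of 0.042 without both libraries of line 6, in a range of 0.042 to 0.567 over 18 alternatives. C230096K16Rik on the same strand and Gm20033 on the opposite strand overlap its annotation.

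**Figure D2:**
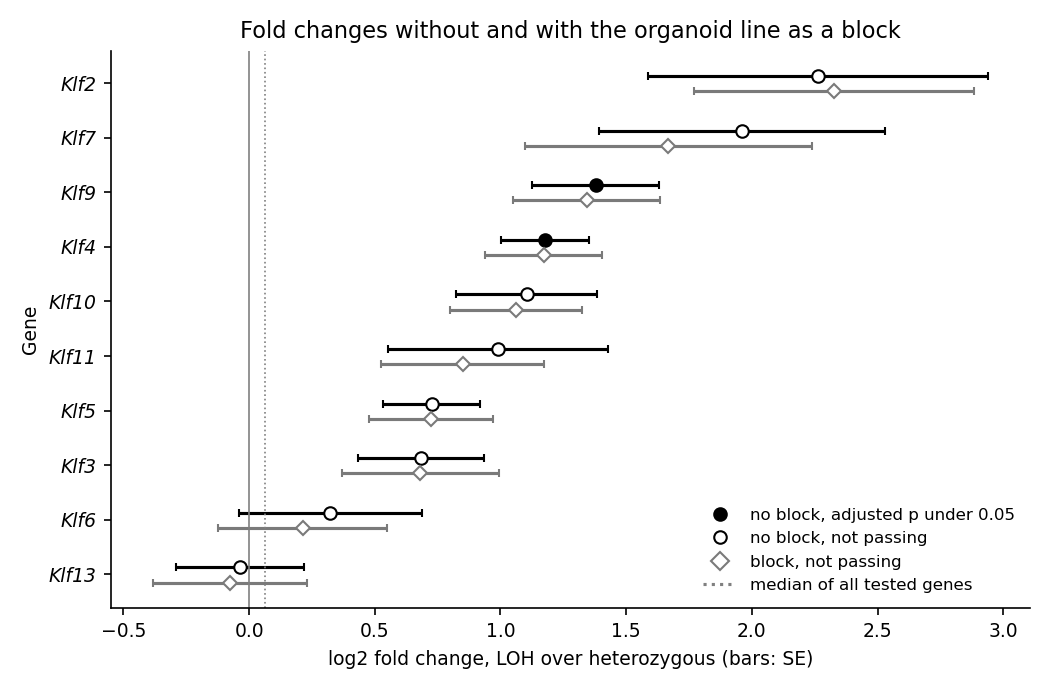
Log2 fold change of each Kruppel-like factor, LOH over heterozygous, with its SE, from the model without a block (circles) and from that blocked by organoid line (diamonds). Filled marks have an edgeR adjusted p under 0.05, and the dotted line is the median of all tested genes, 0.06. Klf4 and Klf9 are filled without the block, no mark is filled with it, and the widest errors belong to Klf2 and Klf7.

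Line by line, 7 members (Klf2, Klf4, Klf5, Klf7, Klf9, Klf10 and Klf11) had a higher CPM with LOH in each of the 3 lines, as did 22.9% of all tested genes. Klf2 is among the 7, although it passed the count filter through its LOH libraries. Klf4 was the most even, at log2 ratios of 1.36 in line 6, 1.02 in line 23 and 1.13 in line 34. Klf7 was the least even, at 0.15, 2.79 and 1.96. Line 6 had the lowest log2 ratio of the 3 lines for every member other than Klf2, lowest in line 23, and Klf4, which had its highest in line 6. Each line has 1 library per genotype, so differences between lines were not tested.

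Medians of whole chromosomes also differed between the libraries of a line, taken over genes averaging 5 CPM or more. On chromosome 4, which holds Klf4, 626 genes had median log2 ratios of -0.35, -0.48 and -0.27 in lines 6, 23 and 34. Klf4 was higher with LOH while its chromosome was lower, so the difference between them was 1.71, 1.49 and 1.4. Chromosome 13, which holds Klf6, had medians of -0.51, -0.14 and -0.79, and Klf6 differed from them by -0.01, 0.39 and 1.7. In line 6 the log2 ratio of Klf6, -0.52, was close to that of its chromosome. Chromosome 19, which holds Klf9, had medians of 0.33, 0.44 and 0.04, against log2 ratios of 1.04, 1.88 and 1.1 for Klf9. For Klf11 in line 6 the log2 ratio of 0.27 was close to the 0.2 of chromosome 12. With the chromosome medians removed, the same 7 members were higher in each line.

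**Figure D3:**
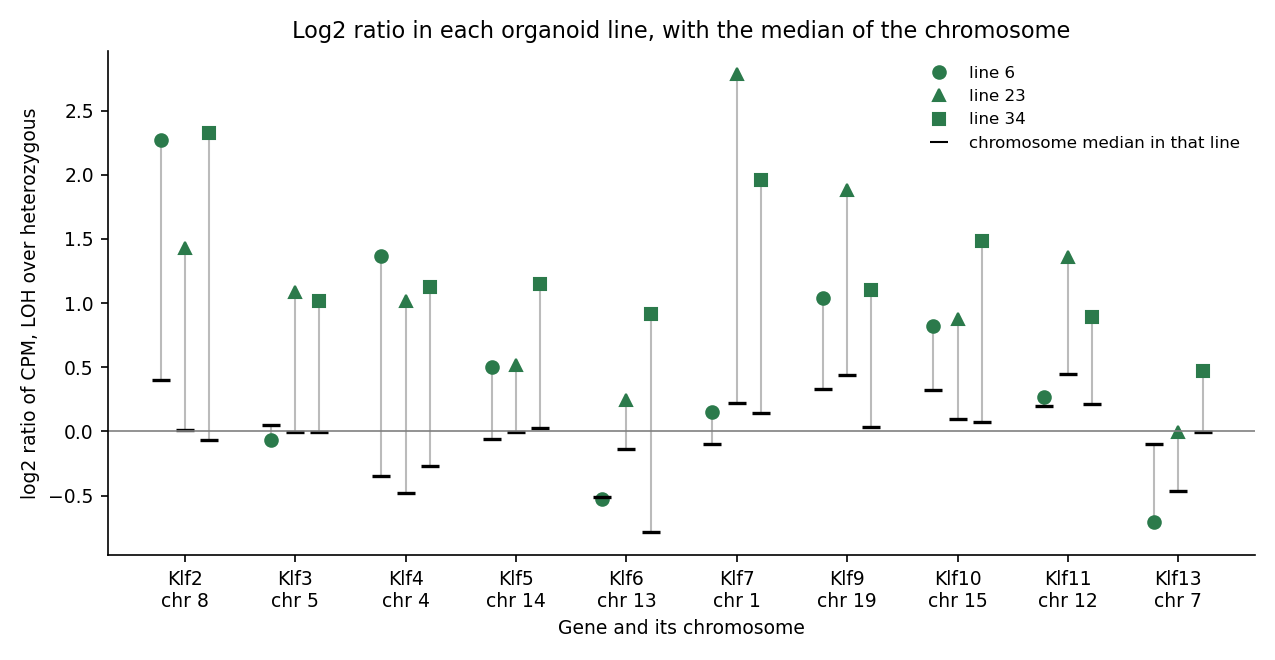
Log2 ratio of CPM, LOH over heterozygous, of each Kruppel-like factor in lines 6 (circle), 23 (triangle) and 34 (square), with a black dash for the median of its chromosome in that line. Klf4 lies 1.4 to 1.71 above the median of chromosome 4, and the line 6 value of Klf6 lies on that of chromosome 13.

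Compared per length, as TPM, the members kept a broad order in both groups. In the heterozygous libraries the order was Klf5 (35.2 ± 7.82 TPM), Klf6 (26.1 ± 1.89), Klf3 (25.4 ± 5.76), Klf4 (12.9 ± 1.14), Klf10 (10.1 ± 0.34), Klf13 (9.11 ± 1.8), Klf9 (3.34 ± 0.62), Klf11 (2.15 ± 0.44), Klf7 (1.06 ± 0.16) and Klf2 (0.213 ± 0.122), each as mean ± SD with n = 3. Klf6 and Klf3 overlapped in their ranges, as did Klf10 and Klf13, and no other neighbours in that order did. In the LOH libraries Klf5 led with 43.6 ± 4.26 TPM (SD, n = 3), followed by Klf3 at 31.9 ± 5.18, Klf6 at 23.7 ± 9.11, Klf4 at 21.9 ± 4.5 and Klf10 at 16.2 ± 3.77. From Klf3 down to Klf10 each gene overlapped the next. A lower run of overlapping genes held Klf9 (6.58 ± 1.9), Klf13 (6.54 ± 1.58), Klf11 (3.58 ± 2.32) and Klf7 (2.7 ± 1.73), with Klf2 below it at 0.753 ± 0.287. Klf9 thus stood level with Klf13 in the LOH libraries, while their heterozygous ranges did not overlap.

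The TPM scale itself shifted. Over all tested genes the median log2 ratio of TPM + 0.1, LOH over heterozygous, averaged -0.36 over the 3 lines, against 0.06 for the log2 fold change from TMM-scaled counts. In limma on log2(TPM + 1) Klf4 had a difference of 0.71 (limma adjusted p 0.0567) and Klf9 one of 0.79 (0.0705), so neither passed on that scale. Relative to the median of all tested genes the log2 ratio of TPM + 0.1 was 1.37, 0.96 and 0.99 for Klf4 and 1.02, 1.84 and 1.01 for Klf9 in lines 6, 23 and 34. Klf13 was at -1.17, -0.32 and 0.04 before that centring and at -0.74, -0.06 and 0.42 after it.

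Shares within the family do not depend on the scaling of a library. They do depend on the other members, so a share can fall while the level of that gene does not. Klf4 took 9.71%, 10.2% and 11% of the summed TPM of the 10 genes in the heterozygous libraries of lines 6, 23 and 34, and 19.4%, 12.3% and 11% in the LOH libraries. The groups did not overlap, but in line 34 they differed only from 10.97% to 11.003%. Klf13 took 7.65%, 7.01% and 7.02% of the family's TPM when heterozygous and 3.51%, 4.11% and 4.71% after LOH, which is lower in each line by more than the spread within a group. Klf6 was lower in its share as well, at 18.8%, 22.7% and 21.4% against 9.53%, 17% and 17.8%. In level neither was called, at log2 fold changes of -0.04 for Klf13 and 0.32 for Klf6 in edgeR. Klf9 had 2.76%, 2.38% and 2.83% against 4.36%, 5.36% and 2.91%, and Klf2 stayed under 1% in every library. The other 5 members overlapped between the groups in their shares. Together Klf3, Klf5 and Klf6 made up 67.6% to 70.8% of the family's TPM in the heterozygous and 60.7% to 66.7% in the LOH libraries. The TPM ratio of Klf4 to Klf5, factors with opposite places in the gut epithelium, was 0.322, 0.373 and 0.422 in the heterozygous and 0.595, 0.514 and 0.403 in the LOH libraries, and the ranges overlapped through line 34.

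**Figure D4:**
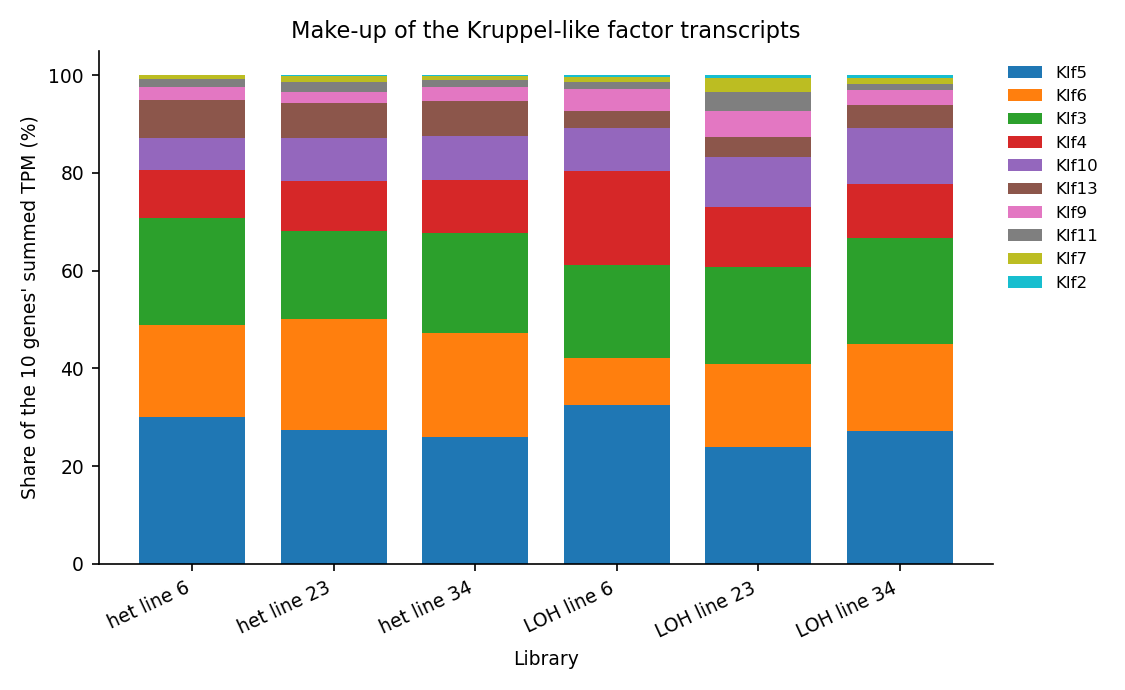
Share of each gene in the summed TPM of the 10 Kruppel-like factors, in percent, one bar per library. Klf5, Klf6 and Klf3 make up most of each bar, from 60.7% to 70.8%, the share of Klf13 is smaller in the 3 LOH libraries, and that of Klf4 is largest in LOH line 6.

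Klf2 and Klf9 have a single annotated transcript. Shares here are percents of a gene's abundance scaled for length, so a short transcript can take a large share from few counts. The leading transcript took at least 94.8% of Klf4 (Klf4-201), 89.3% of Klf5 (Klf5-201), 89.9% of Klf13 (Klf13-201), 83.4% of Klf10 (Klf10-201) and 77.1% of Klf11 (Klf11-201) in every library. For Klf6 the protein-coding Klf6-201 took 60.8% to 69.8%, and Klf6-202, annotated as a retained intron, took 27.1% to 39.2%. In counts Klf6-202, at 799 bases, held 51.9 to 177 per library, against 660 to 2295 for Klf6-201, at 4225 bases. Their shares overlapped between the groups, with Klf6-202 at 34.4%, 27.1% and 39.2% in the heterozygous and 33.2%, 30.4% and 33.2% in the LOH libraries of lines 6, 23 and 34. Klf3 had the most transcripts with counts, all 9 that are annotated, with Klf3-201 at 54.6% to 85.1%. The shares of Klf7-202 ran from 49.2% to 91.5% without separating the groups, and in heterozygous line 23 they rest on 66 counts for the whole gene. In LOH line 6 Klf7-203, at 553 bases, took 41.4% on 4.19 counts, where Klf7-202 held 100.8 counts.

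A further 7 Klf genes were listed, and the 3 of them that could be tested had log2 fold changes below 0. Klf15, a factor of metabolism that responds to glucocorticoids, had 4.17, 5.05 and 4.31 CPM when heterozygous and 0.524, 1.89 and 0.373 CPM after LOH, without overlap. Its log2 fold change was -2.25 (SE 0.63, adjusted p 0.0833 in edgeR), and -3.32 without LOH line 23, with an edgeR adjusted p of 0.0285, in a range of 0.00642 to 0.314 over 17 alternatives. Klf16, a Sin3-binding relative of Klf13, had 26.7, 27.2 and 24.3 CPM against 16.5, 18 and 19.3 CPM, a log2 fold change of -0.54 (SE 0.18, adjusted p 0.115 in edgeR). Klf1, the erythroid factor, had one of -0.63 (SE 0.49, adjusted p 0.449 in edgeR) at no more than 0.601 CPM. None of the 3 passed (0 of 3 in edgeR), and 2 had an unadjusted p under 0.05, against 25.3% of all tested genes. DESeq2 called Klf15 and Klf16, both lower, and 16.1% of the genes to which it gave an adjusted p. Limma on log2(TPM + 1) also called both lower, at limma adjusted p-values of 0.0201 and 0.0354. On log2(TPM + 0.1) these were 0.0304 and 0.0345. Limma called 16% and 14.7% of all genes tested there. The TPM scale was itself shifted, as the median log2 ratio of TPM + 0.1 over all tested genes averaged -0.36. Klf12 did not pass the filter, with 2, 0 and 2 counts in the heterozygous and 5, 27 and 203 counts in the LOH libraries of lines 6, 23 and 34. Klf8, Klf14 and Klf17 did not pass it either, at no more than 5 counts in any library.

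Among the related Sp factors, which bind the same GC boxes, 0 of 6 tested genes passed in edgeR, and 0 had an unadjusted p under 0.05. In line 6 their median log2 ratio was -0.49, and 0 of 6 were higher in each of the 3 lines, against 22.9% of all tested genes. Their median log2 fold change was 0.66, and 5 of 6 were above 0, against 54% of all tested genes. Sp1, at 20.5 TPM the most abundant of them in the heterozygous libraries, had one of 0.36 (SE 0.26). The cofactors (CtBP, Sin3, histone deacetylase and acetyltransferase genes, 14 of 14 tested) had a median of -0.13, with 0 called in edgeR and 1, Sap30, at an unadjusted p under 0.05. The upstream regulators (the ERK5 and MEF2 genes, TGF-beta receptors and SMADs, the glucocorticoid receptor and protein-turnover genes, 13 of 14 tested) had a median of 0.19, with 0 called and 1, Mef2d, at an unadjusted p under 0.05. Counts with the block were 0 for these 3 lists. Of all tested genes 25.3% had an unadjusted p under 0.05 without the block.

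The median over genes reported as targets of Klf4 in epithelium was a log2 fold change of 1.23 (7 of 7 tested), and Krt19 and Cdh1 among them also stand in the epithelial list. In edgeR 0 of the 7 passed without the block, with 3 at an unadjusted p under 0.05, against 25.3% of all tested genes. With the block 2 passed, both higher, against 1.22% of all tested genes called higher. These were Lama3, a laminin chain of the epithelial basement membrane, and Alpi, the intestinal alkaline phosphatase of the brush border, named after their values were seen. Lama3 had 0.867, 1.63 and 2.44 CPM when heterozygous and 4.07, 19.7 and 37.8 CPM after LOH (block log2 fold change 3.29, SE 0.45, edgeR adjusted p 0.0431). Alpi had 9, 0 and 0 counts in the heterozygous and 1108, 13 and 70 counts in the LOH libraries of lines 6, 23 and 34 (block edgeR adjusted p 0.0257), and line 6 holds most of its LOH counts. Alpi passed the count filter only through the LOH libraries. Without LOH line 6 its log2 fold change, without the block, was 3.92 in place of 7.53. Cdkn1a, which both Klf4 and p53 are known to activate, had a log2 fold change of -0.61 (edgeR adjusted p 0.339). It had 27.5, 24.9 and 22 CPM when heterozygous and 8.03, 21.7 and 19 CPM after LOH. That is lower in each line, and the groups did not overlap, by a narrow margin. Reported Klf5 targets (7 of 7 tested) had a median of -0.53 with 0 called and 4 at an unadjusted p under 0.05. Of these 4, 3 were lower, Ccnd1, Ccnb1 and Cdk1 of the cell cycle, and Pdgfa was higher (all named after their values were seen). Pdgfa went from 3.8, 6.6 and 3.07 CPM in heterozygous lines 6, 23 and 34 to 7.57, 15.4 and 21.7 CPM after LOH, without overlap. Only 2 of 5 reported Klf2 targets could be tested, and 0 were called. Both had an unadjusted p under 0.05 in edgeR, against 25.3% of all tested genes, and they went opposite ways at low counts. Thbd had 77, 21 and 13 counts when heterozygous and 0, 4 and 2 after LOH (log2 fold change -4.03, edgeR adjusted p 0.06). Itgb7 had 9, 3 and 19 counts against 30, 24 and 82 (log2 fold change 2.42, edgeR adjusted p 0.0848). In CPM neither overlapped between the groups.

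Immediate-early genes, the class of fast-responding genes to which several members belong, centred on a log2 fold change of 0.63 (median, 18 of 20 tested). In edgeR 3 passed without the block, Egr1 and Junb higher and Cyr61 lower, against 5.21% of all tested genes. With the block 0 passed, against 1.47%. Of the 18, 10 had an unadjusted p under 0.05, 8 of them higher. Of all tested genes 25.3% had one, and 14.7% had one and were higher. Egr1, a zinc finger factor that binds GC-rich sites, rose from 13.1 ± 2.24 to 52.4 ± 24.3 CPM (mean ± SD, n = 3 per group), or a log2 fold change of 2 (SE 0.4, adjusted p 0.0399 in edgeR, 0.118 with the block). Junb, an AP-1 subunit, rose from 66.5 ± 6.14 to 139.7 ± 37.6 CPM, a log2 fold change of 1.07 (SE 0.23, adjusted p 0.0474 in edgeR, 0.111 with the block). Cyr61, a matricellular protein and YAP target, fell from 37.6 ± 8.58 to 12.7 ± 5.32 CPM, a log2 fold change of -1.56 (SE 0.34, adjusted p 0.0481 in edgeR, 0.0925 with the block). In the clock and glucocorticoid list (13 of 13 tested, median 0.8) 2 genes passed without the block, both higher, and 0 with it. Of all tested genes 3.55% were called higher without the block. Dbp, a transcription factor of the clock's output, rose from 2.99 ± 0.95 to 10.4 ± 1.96 CPM (log2 fold change 1.81, SE 0.33, edgeR adjusted p 0.0314, 0.0662 with the block). Nr1d1, a repressor within the clock, rose from 3.62 ± 0.58 to 8.9 ± 0.8 CPM (log2 fold change 1.3, SE 0.26, edgeR adjusted p 0.039, 0.125 with the block). The glucocorticoid-induced Fkbp5, Tsc22d3 and Sgk1 had log2 fold changes of 0.45, 0.17 and 0.9 and did not pass. Of these Sgk1 did not overlap between the groups, at 10.4, 14.5 and 21.3 CPM when heterozygous and 31.4, 23 and 31.9 CPM after LOH (SE 0.3, adjusted p 0.122 in edgeR). Times of harvest are not given in the sources used here.

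**Figure D5:**
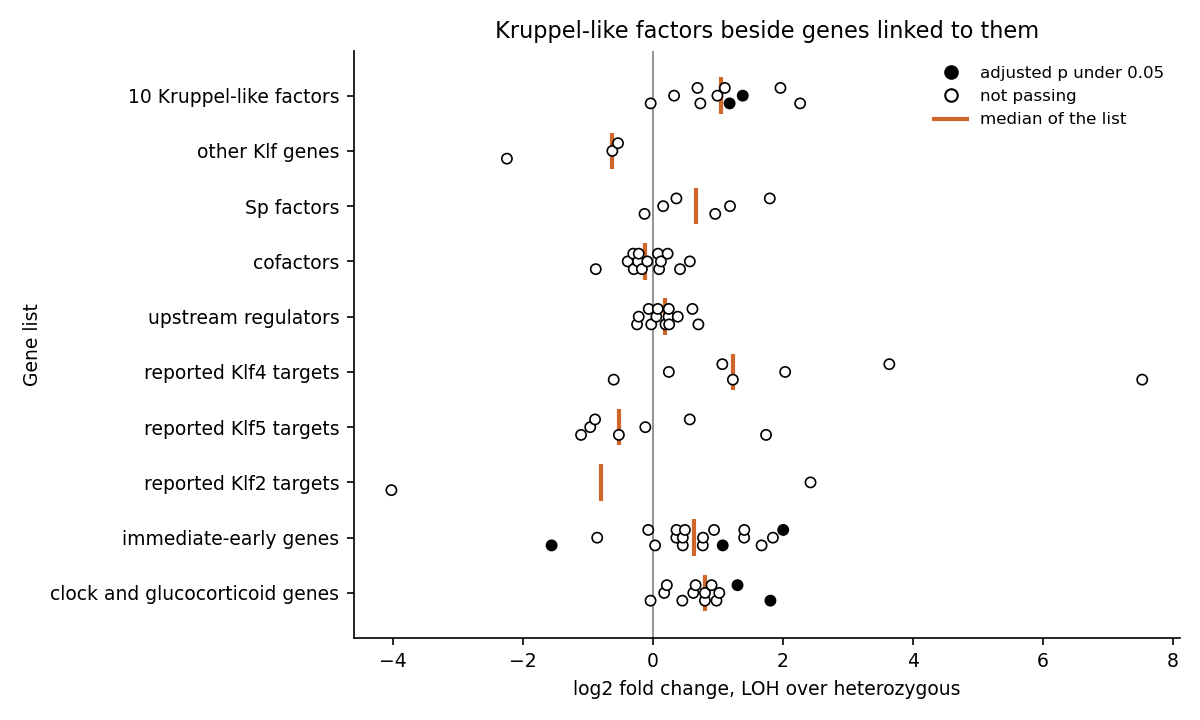
Log2 fold change, LOH over heterozygous, of each tested gene in the 10 Kruppel-like factors and in lists of related genes. Filled points have an edgeR adjusted p under 0.05 without the block and the orange bar is the median of the list. The 10 members centre on 1.05, the other Klf genes on -0.63 and the reported Klf5 targets on -0.53.

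By the root mean square distance of log2 CPM centred on each gene, over 6 libraries, the genes most like Klf4 were Ankrd22 (0.09), Itpripl2 (0.1) and Lclat1 (0.1). Ankrd22 had 2.7, 2.89 and 3 CPM when heterozygous and 7.51, 6.3 and 7.17 CPM after LOH, at a lower level than Klf4. Its lines stood in the same order as those of Klf4 among the LOH libraries, but not among the heterozygous ones. Those most like Klf9 were Kremen2 (0.08), Ccdc71l (0.09) and Gm17055 (0.11). Klf5 was the member nearest to Klf4, at 0.29 and rank 325, and Klf4 was the member nearest to Klf9, at 0.31 and rank 196, among the tested genes. The likeness includes the difference between the groups.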

How the data were processed

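RNA from 6 organoid cultures was made into libraries with a strand-keeping kit for total RNA, per the labels' protocols, and sequenced. The authors deposited expected counts and TPM values per gene and per transcript, the percent of each gene's abundance on each transcript, and normalized tables whose signal is the expected count divided by 1 factor per library, as found from the values. STAR 2.5.2b, RSEM 1.3.0, FastQC 0.11.5, DESeq2 1.44.0 and the build GRCm38.p5 are named, without their roles, per the submitters' processing notes, and the strand setting is not given in the sources used here. Positions come from the GENCODE M21 annotation, which held 53274 of the 53379 gene IDs of the count table.

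Expected counts were rounded to whole numbers, filtered with filterByExpr and scaled by TMM. LOH was compared with heterozygous libraries over all 14537 tested genes by the quasi-likelihood test of edgeR 4.0.16 (R 4.3.3). Its two-sided p-values were adjusted by Benjamini-Hochberg, and 0.05 was the threshold. Log2 CPM used a prior count of 2. The scripts for this test were tested on simulated data. Line numbers in the titles pair the libraries, since same-numbered libraries come from the same organoid line. The correlations of their deviations from the group means were -0.3, 0.01 and 0.29 for lines 6, 23 and 34, against -0.39 to 0.3 between different lines. The main model had no block, and the block was an alternative. Other alternatives were other scalings and filters, the table of 17313 protein-coding genes, each library or line left out, DESeq2 1.42.0, and limma 3.58.1 on log2(TPM + 1) or log2(TPM + 0.1) for genes with at least 1 TPM in 3 libraries.

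Depth ran from 13680458 to 27917277 counts per library, and PCR copies were not separated from molecules. All 10 members are described. From each other list, up to 3 higher and 3 lower genes with an adjusted p under 0.05 were to be named, and other names were chosen after their values were seen. For the 2 members with the smallest p, the 3 nearest genes are given. Members and lists were chosen with earlier results of these data known. Figures were drawn with matplotlib 3.10.9. A further part of the genotype that all 6 cultures share, and a marker gene, are not reported here.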

Additional observations from a re-analysis of the deposited data

Results flagged for a closer look

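For 3 members the lines moved in opposite directions between LOH and heterozygous libraries, and with 1 library per genotype in each line these differences were not tested. Klf3 was lower in line 6 and higher in lines 23 and 34, with 1.15 between its highest and lowest log2 ratio. Klf6 was lower in line 6 and higher in lines 23 and 34, with a distance of 1.44. Klf13 was lower in line 6, within 0.01 of no difference in line 23 and higher in line 34, with a distance of 1.17.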

How the results depend on the processing

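The calls on the members depended on the model more than their directions did. Of the 10 members, 2 were called without a block, 0 with the replicate block of organoid line, and 6 with DESeq2. In limma 0 of the 9 members that passed its filter were called on log2(TPM + 1) and 0 on log2(TPM + 0.1), against 16% and 14.7% of all genes tested there. The count stayed at 2 with RLE scaling, with upper quartile scaling, unfiltered, with a minimum of 10 counts per library and on the protein-coding table. Leaving out 1 library gave 0 to 4 members, with 0 without any one heterozygous library, where 0 genes of the whole table were called (15% to 19.6% had an unadjusted p under 0.05), and 4 without LOH line 6, where 16.2% of all genes were. Leaving out line 6 gave 4 members and 9.66% of all genes. Leaving out line 23 or line 34 gave 0 members, as edgeR then called 0 genes in all, with 15.2% and 14.6% at an unadjusted p under 0.05. The cause was not tested. Klf4 kept a log2 fold change of 0.71 to 1.25 and Klf9 one of 0.79 to 1.51 over 18 alternatives. Klf13 changed sign, with -0.27 to 0.13 when 1 library was left out (0.0072 without heterozygous line 6, 0.13 without LOH line 6) and 0.21 without line 6. Klf6 changed sign, to -0.037 without line 34, -0.21 in limma on log2(TPM + 1) and -0.22 on log2(TPM + 0.1). The members higher in all 3 lines numbered 7 by CPM and 7 with chromosome medians removed. They numbered 6 by the log2 ratio of TPM + 0.1 and 8 once it was centred, both ratios chosen after seeing the data. Depth limits Klf2 most, at 3 to 47 counts per library.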
